A study of Mus musculus with 6 samples.

Results

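Transcripts of 33 genes of fatty acid oxidation and ketogenesis were measured by RNA sequencing in the mouse duodenum, the first stretch of small intestine after the stomach. The genes are those of a list of symbols found among the 23699 gene rows of every library. All 33 passed the filter on low values, which asked for 0.5 FPKM or more in 3 or more libraries and left 13596 genes. FPKM stands for fragments per kilobase of transcript and per M fragments, so levels can be compared between genes. The 3 controls were Nkx2.2flox/+. The 3 mutants were Nkx2.2flox/flox; Villin-Cre/+, with Cre recombinase driven by the villin promoter of the intestinal epithelium, and mutant 3 also carried the reporter allele Rosa26Tomato/+. All 6 samples thus carried at least 1 floxed Nkx2.2 allele. No Cre is listed for the controls, so an effect of Cre cannot be told apart from one of the deletion. Mice were 6 weeks old and of mixed background, and RNA came from the 2 cm of whole duodenum nearest the stomach. The comparison asked whether transcripts of fatty acid breakdown differ in the duodenum when Nkx2-2, a transcription factor of gut endocrine cells, is targeted in the epithelium. No label states that the samples of a group are separate animals, so p-values measure only the spread between these samples.

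Fatty acids are activated to acyl-CoA, enter mitochondria as carnitine esters and are shortened there in repeated rounds of dehydrogenation, hydration, oxidation and thiolysis. Peroxisomes run a similar chain on very long and branched fatty acids. The acetyl-CoA that results can be burned or turned into ketone bodies, and the nuclear receptor PPAR alpha, which is activated by fatty acids, drives many of these genes in liver and small intestine. Enterocytes of the proximal gut take up dietary fat, export most of it in lipoproteins and oxidise some of it.

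The depth behind the values was 20.9 to 26.1 M fragments per library, and a member rested on 92.9 (Acot1 in mutant 1) to 36180 (Ucp2 in mutant 2) rebuilt reads in a library. Nkx2-2 lay at 1.13, 1.32 and 0.779 FPKM in controls 1 to 3, against 1.10, 0.736 and 0.221 FPKM in mutants 1 to 3, so the groups overlapped, and the floxed exons are not given in the labels. Ghrl, which encodes ghrelin, lay at 82.4, 70.8 and 58.6 FPKM in controls 1 to 3, against 1320 FPKM, 1360 FPKM and 644 FPKM in mutants 1 to 3, so each mutant stood apart from the controls in this gut hormone. Xist lay between 0.0177 and 0.0894 FPKM in the controls and mutant 1, and at 19.7 and 22.5 FPKM in mutants 2 and 3. Mutants 2 and 3 thus differed from the other libraries in this transcript of the inactive X chromosome, and its part in the results was not tested. The labels give no sex. No control had a like Xist level, so a difference that goes with Xist, such as sex, cannot be told apart from genotype in mutants 2 and 3. The 13 enterocyte markers were all expressed, led by the lipoprotein component Apoa4 and the fatty acid binding protein Fabp2, and their summed level was 12564 to 24770 FPKM in the controls and 13728 to 29013 FPKM in mutants. The tissue also held exocrine pancreas transcripts, led by the digestive enzymes Ctrb1 and Cela2a, with a summed level of 12675 to 20492 FPKM in the controls and 2899 to 12479 FPKM in mutants. In whole tissue, fewer cells of a type and less RNA per cell cannot be told apart.

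The pathway was strongly expressed, and most of its transcripts lay at close levels in both genotypes. Of the 33 genes, 25 lay above the 75th percentile of the mean levels of all genes tested and 16 above the 90th. Hadh, the mitochondrial short-chain hydroxyacyl-CoA dehydrogenase, had the highest mean level over all libraries at 424 ± 52.5 FPKM (SD, n = 6), followed by Acaa2, Ucp2, Etfb and Acaa1a. The lowest were the acyl-CoA thioesterases Acot1 and Acot2, and the means spanned 135-fold. In this order, only 3 of 32 neighbouring pairs had ranges over the 6 libraries that did not overlap, namely Acadvl above Hadha, Bdh1 above Cpt1a and Ppargc1a above Acot1. The other neighbours overlapped, so most ranks next to each other were not told apart.

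**Figure D1:**
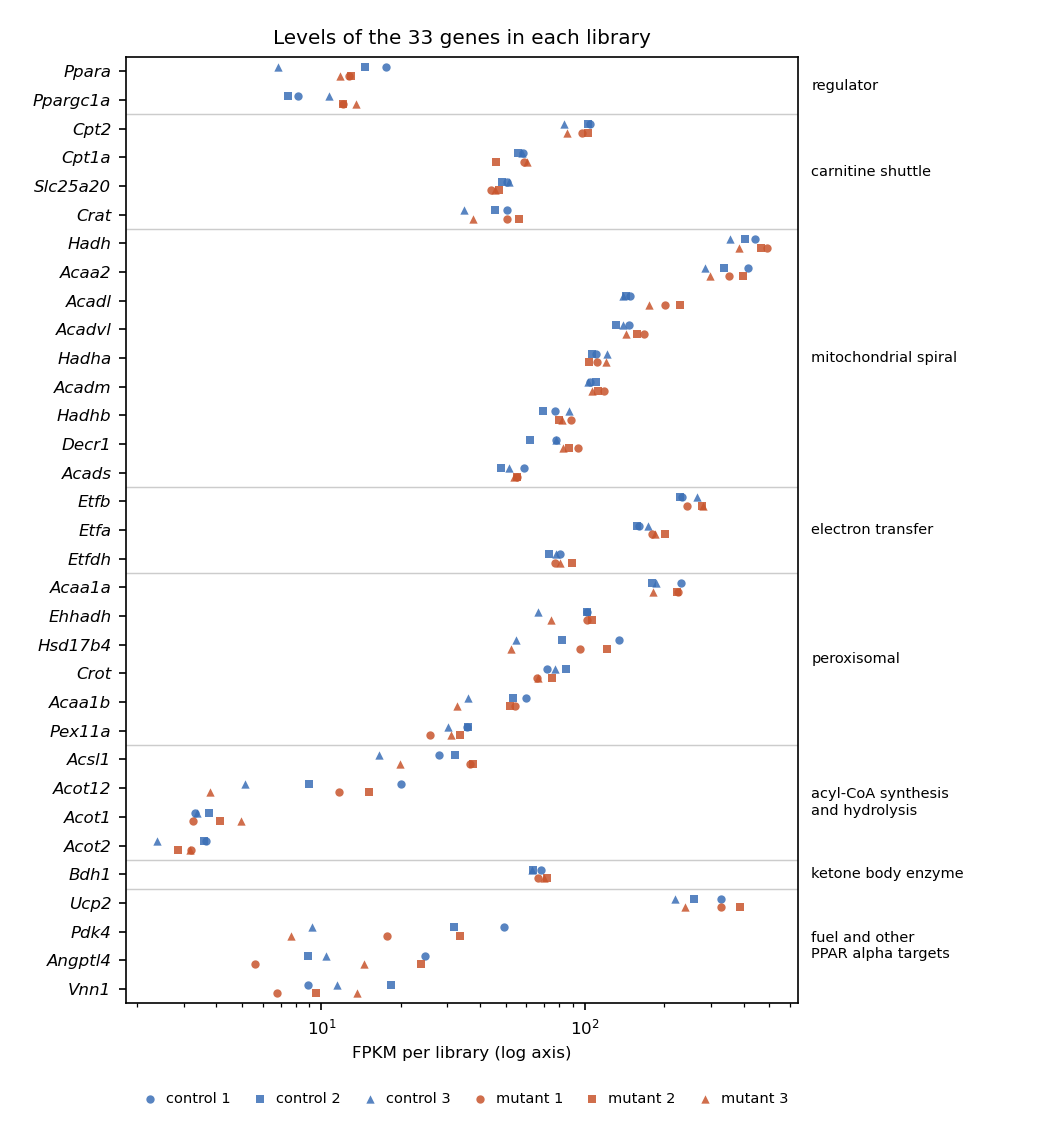
FPKM of the 33 genes in each of the 6 libraries on a log axis, ordered by role, with controls and mutants in different colours and the library number as the symbol. Hadh lies at 354 to 492 FPKM and Acot2 at 2.37 to 3.64 FPKM, and in most genes the symbols of both genotypes lie among each other.

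Comparing mutants with controls, limma called 0 of the 33 genes at an adjusted p under 0.05, where it called 0.0221% of all genes. All 33 had an adjusted p of 0.999. At an unadjusted p under 0.05 there were 2 genes, Acadl and Ppargc1a, where 3.43% of all genes passed. With the replicate number added to the fit as a block, which pairs same-numbered libraries, there were 4, as Acsl1 and Decr1 joined them, where 6.76% of all genes passed, and 0 of the 33 passed the adjustment. The values of both groups did not overlap in 5 members, against a background of 7.75%: Acadl, Ppargc1a, Decr1 and Etfa were higher in every mutant (background 4.05%), and Slc25a20 was lower in every mutant (background 3.71%). In the authors' deposited table, 0 members had an adjusted p under 0.05, where 0.14% of all genes did, and 2 had a p under 0.05 (2.16% of all genes). Limma-voom on rebuilt reads called 0 members, but also 0 of all 14800 genes it tested, so this tells nothing about the members. The 95% interval of the change lay within 2-fold in either direction for 27 of 33 members (81.8%), a smaller share than the 91.1% of all genes. All 16 genes of mitochondrial oxidation were among those 27, as were 5 of 6 peroxisomal genes.

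**Figure D2:**
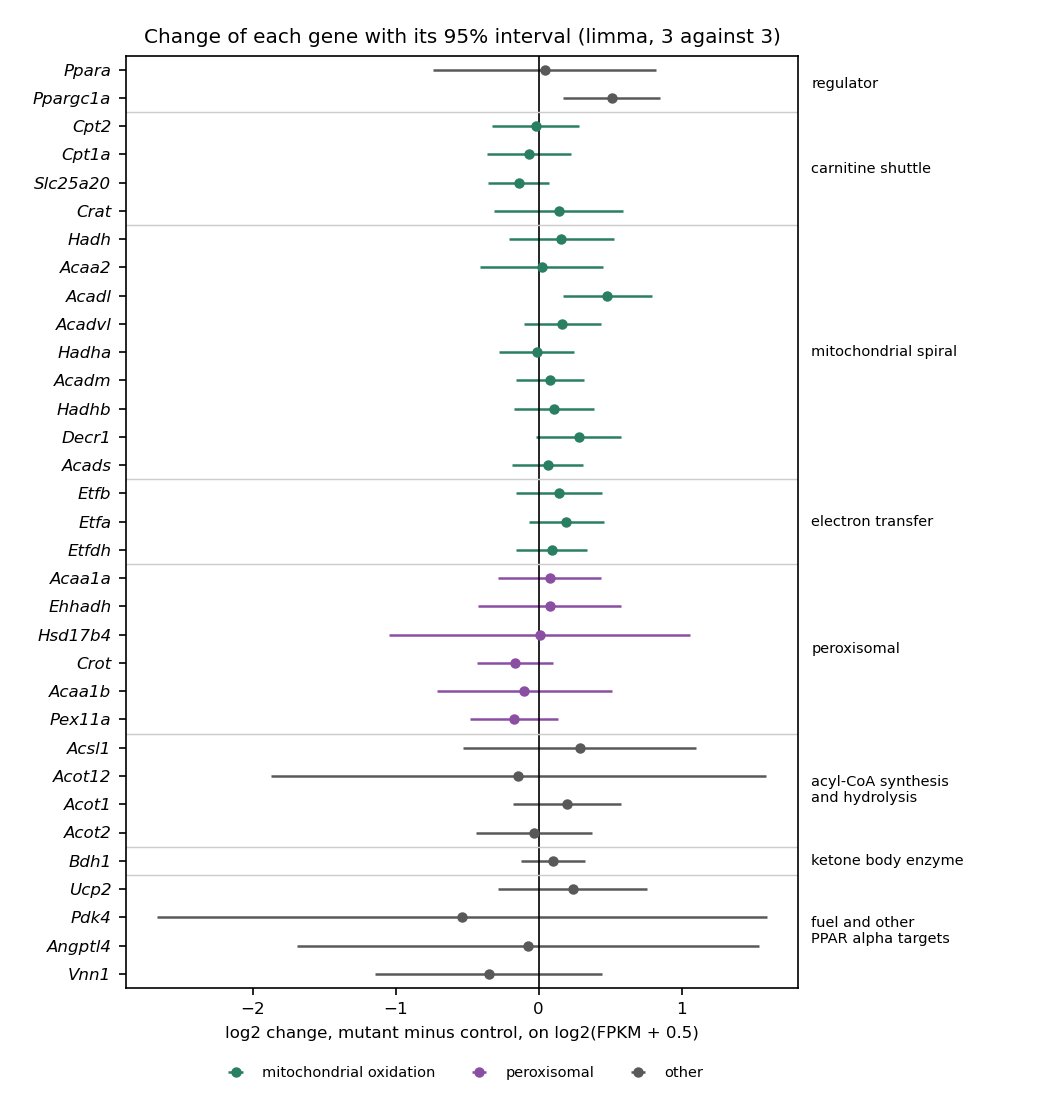
Log2 change of each gene, mutant minus control on the log2(FPKM + 0.5) scale, with its 95% interval from limma (3 libraries against 3), ordered by role. The intervals of Acadl (0.17 to 0.79) and Ppargc1a (0.17 to 0.85) lie above 0, and those of Pdk4, Acot12 and Angptl4 are the widest.

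The regulators were expressed at moderate levels. Ppara, which encodes PPAR alpha (at 85565994 to 85637281 of chromosome 15 in mm9, the build of all gene positions here), lay at 17.6, 14.6 and 6.86 FPKM in controls 1 to 3, against 12.7, 13.0 and 11.8 FPKM in mutants 1 to 3. The mutants all lay inside the range of the controls, whose library 3 was the lowest of the 6. The log2 change was 0.04 ± 0.32 (SE; 95% interval -0.74 to 0.82). Ppargc1a (chromosome 5, 51845488 to 51945160) encodes PGC-1 alpha, a coactivator of PPAR alpha that promotes mitochondrial gene expression. It lay at 8.14, 7.47 and 10.7 FPKM in the controls, against 12.1, 12.1 and 13.5 FPKM in the mutants. Every mutant lay above every control, with control 3 nearest to the mutants. The log2 change was 0.51 ± 0.14 (SE; 95% interval 0.17 to 0.85), a mean of 8.75 ± 1.68 FPKM in the controls and 12.6 ± 0.820 FPKM in mutants (SD, n = 3 each). It did not pass the adjustment (adjusted p = 0.999). Without both libraries numbered 3, a setting chosen after seeing the data, the log2 change was 0.60 and the adjusted p was 0.0762. The authors' deposited table gave Ppargc1a a fold change of 1.46 with p = 0.00469 and an adjusted p of 0.919.

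Of the isoforms of these genes, limma called 0 of the 6 that belong to members with more than 1 isoform (Ppara, Ppargc1a and Bdh1), where it called 0.00617% of all isoforms. The coding isoform of Ppargc1a made up 78.9% to 99.9998% of the gene's level in a library and lay at 6.61, 6.68 and 9.63 FPKM in the controls and 9.52, 12.1 and 10.8 FPKM in mutants. Here mutant 1 lay below control 3, and the log2 change was 0.49 ± 0.18 (SE), with an unadjusted p under 0.05, as in 3.79% of all isoforms. Its non-coding isoform was estimated at 0.789 to 1.53 FPKM in controls, at 2.55 and 2.75 FPKM in mutants 1 and 3, and at 2.04e-05 FPKM in mutant 2. The coding and non-coding transcripts span the same positions and are 6464 and 6495 bases long. How the gene's level divides between them is therefore uncertain in each library, and the value in mutant 2 does not show a loss. In Ppara the shorter of both transcripts was estimated to carry 76.7% to 87.5% of the level in each library, and in Bdh1 1 isoform 95.2% to 99.7%. The transcripts are 7207 and 7445 bases long in Ppara and 3098 and 3117 in Bdh1. In each gene they span mostly the same positions, so these divisions are uncertain too.

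The carnitine shuttle brings long-chain fatty acids into mitochondria. Cpt1a (chromosome 19, 3323301 to 3385733), the outer membrane carnitine palmitoyltransferase that controls entry, lay at 58.1, 55.8 and 57.8 FPKM in the controls, against 58.6, 46.1 and 60.0 FPKM in the mutants. Mutants 1 and 3 lay just above the controls, and mutant 2 below them. The log2 change was -0.07 ± 0.13 (SE; 95% interval -0.36 to 0.22). Cpt2, the inner membrane enzyme of highest level in this group, lay at 104, 103 and 83.6 FPKM in the controls, against 97.2, 102 and 85.7 FPKM in the mutants, again with overlap. Slc25a20 (chromosome 9, 108564429 to 108586972), the carrier that exchanges acylcarnitine for carnitine, lay at 50.4, 48.6 and 51.7 FPKM in the controls, against 44.0, 47.1 and 45.6 FPKM in the mutants. It was the one member lower in every mutant, by a small margin, with a log2 change of -0.14 ± 0.09 (SE; 95% interval -0.35 to 0.07). Crat, which moves acetyl groups between CoA and carnitine, ranged over 34.7 to 50.7 FPKM in the controls and over 37.7 to 56.2 FPKM in the mutants.

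In the mitochondrial spiral, Acadl stood furthest from equal levels. It encodes the long-chain acyl-CoA dehydrogenase, one of the enzymes of the first oxidation step (chromosome 1, 66877427 to 66909841). Acadl lay at 148, 143 and 139 FPKM in controls 1 to 3, against 201, 229.6 and 175 FPKM in mutants 1 to 3. The lowest mutant lay above the highest control, and the mutants spread more than the controls (202 ± 27.5 against 144 ± 4.60 FPKM, SD, n = 3 each). The log2 change was 0.48 ± 0.13 (SE; 95% interval 0.17 to 0.79), with an adjusted p of 0.999. Without both libraries numbered 3, chosen after seeing the data, it was 0.56 with an adjusted p of 0.0419, and Acadl was then the one member called, where 1.4% of all genes were called. The authors' deposited table gave Acadl a fold change of 1.45 with p = 0.00878 and an adjusted p of 1. The dehydrogenases for other chain lengths lay closer to equal levels. Acadvl, for very long chains, ranged over 131 to 147 FPKM in the controls and 144 to 168 FPKM in the mutants, with a log2 change of 0.16 ± 0.12 (SE). Acadm, for medium chains, ranged over 103 to 110.2 and 106 to 118 FPKM, with 0.08 ± 0.10. Acads, for short chains, ranged over 47.9 to 58.6 and 53.9 to 55.5 FPKM, with 0.06 ± 0.11. The groups overlapped in all 3.

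Decr1 (chromosome 4, 15844387 to 15872654), the dienoyl-CoA reductase needed for polyunsaturated fatty acids, lay at 77.7, 62.1 and 77.7 FPKM in the controls, against 94.2, 86.7 and 82.6 FPKM in the mutants. The groups did not overlap, and the log2 change was 0.28 ± 0.13 (SE; 95% interval -0.02 to 0.58). With the replicate block that interval was 0.06 to 0.51 (limma adjusted p = 0.6005). Hadh lay at 442, 404 and 354 FPKM in the controls, against 492, 466 and 383 FPKM in the mutants. In each group library 3 was the lowest, and the groups overlapped. Hadha and Hadhb, both chains of the trifunctional protein that carries out the remaining steps on long chains, lay at 106 to 121 and 69.3 to 87.0 FPKM in the controls and at 104 to 119.6 and 80.0 to 88.4 FPKM in mutants. Their log2 changes were -0.01 ± 0.11 and 0.11 ± 0.12 (SE). Acaa2, the thiolase that releases acetyl-CoA, ranged over 286 to 417 FPKM in the controls and over 298 to 399 FPKM in the mutants.

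Electrons from the dehydrogenases pass to the electron transfer flavoprotein. Etfa (chromosome 9, 55302243 to 55360050), its alpha chain, lay at 161, 158 and 173 FPKM in the controls, against 179, 201 and 184 FPKM in the mutants. Every mutant lay above every control, mutant 1 only just, and the log2 change was 0.19 ± 0.11 (SE; 95% interval -0.07 to 0.46). Etfb, the beta chain, lay at 233, 228 and 266 FPKM in the controls, against 244, 277 and 281 FPKM in the mutants, with mutant 1 between the controls. Etfdh, the dehydrogenase that hands the electrons on to ubiquinone, ranged over 72.9 to 80.5 FPKM in the controls and 77.3 to 89.4 FPKM in the mutants and had a log2 change of 0.09 ± 0.11 (SE).

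Across the 16 genes of mitochondrial oxidation (shuttle, spiral and electron transfer), 12 changes were positive, with a median log2 change of 0.10, and 0 were called. Over the 33 genes 21 changes were positive with a median of 0.08, and over all genes tested 44.2% were positive with a median of -0.02. The 13 enterocyte markers leaned the same way, with 11 positive and 2 negative changes and a median of 0.12. A positive lean was thus not particular to the genes of fatty acid breakdown. The median of the mitochondrial genes kept its sign in every alternative run, between 0.06 and 0.15. The 12 genes taken as PPAR alpha targets from general knowledge were Cpt1a, Slc25a20, Acadm, Ehhadh, Acaa1b, Pex11a, Acsl1, Acot1, Pdk4, Angptl4, Ucp2 and Vnn1. Their median was -0.07 and that of the 6 peroxisomal genes -0.05, and both medians changed sign when single libraries were left out. The other members were not shown to be free of PPAR alpha targets, so the median of -0.07 holds only for this choice of 12. Whether the mitochondrial and peroxisomal genes differ from each other in their change was not tested.

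The starts of 4 genes are shown, those of Acadl and Ppargc1a for their low p, that of Cpt1a as the entry enzyme and that of Hadhb because its gene starts beside Hadha. Each runs 5′ to 3′ on the gene's strand from 250 bases before to 50 bases after the annotated start in RefSeq (GRCm38.p6, another build than the mm9 coordinates above). Capitals mark the nuclear receptor half-site AGGTCA and the GC box GGGCGG on either strand (TGACCT and CCGCCC when on the other strand).
Acadl, chr1:66863260-66863559, minus strand: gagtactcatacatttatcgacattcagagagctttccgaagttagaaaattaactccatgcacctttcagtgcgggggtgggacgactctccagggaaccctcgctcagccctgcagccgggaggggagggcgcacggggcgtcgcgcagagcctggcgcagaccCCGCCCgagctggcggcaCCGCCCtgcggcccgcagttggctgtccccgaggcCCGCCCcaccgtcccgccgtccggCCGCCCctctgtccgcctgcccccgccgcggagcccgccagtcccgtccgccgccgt
Ppargc1a, chr5:51567676-51567975, minus strand: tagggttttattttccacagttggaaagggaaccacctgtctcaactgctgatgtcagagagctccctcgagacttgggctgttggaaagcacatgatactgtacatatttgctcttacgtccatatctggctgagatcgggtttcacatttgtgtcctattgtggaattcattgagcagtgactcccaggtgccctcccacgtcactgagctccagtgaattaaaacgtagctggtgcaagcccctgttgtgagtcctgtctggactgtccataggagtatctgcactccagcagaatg
Cpt1a, chr19:3323051-3323350, plus strand: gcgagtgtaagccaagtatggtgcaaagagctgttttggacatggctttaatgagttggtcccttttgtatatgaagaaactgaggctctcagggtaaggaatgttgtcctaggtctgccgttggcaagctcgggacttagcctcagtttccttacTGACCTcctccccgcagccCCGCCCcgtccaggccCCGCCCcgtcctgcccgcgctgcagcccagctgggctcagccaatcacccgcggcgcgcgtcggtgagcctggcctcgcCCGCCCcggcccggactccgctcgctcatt
Hadhb, chr5:30155003-30155302, plus strand: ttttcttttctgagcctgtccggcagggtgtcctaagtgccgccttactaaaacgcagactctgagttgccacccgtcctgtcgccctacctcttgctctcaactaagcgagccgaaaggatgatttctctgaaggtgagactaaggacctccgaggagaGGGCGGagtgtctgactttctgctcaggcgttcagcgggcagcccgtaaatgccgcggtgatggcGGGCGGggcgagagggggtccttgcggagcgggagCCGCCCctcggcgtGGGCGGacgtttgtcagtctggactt

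The Acadl window held 4 GC boxes and no half-site, that of Ppargc1a held neither, that of Cpt1a held 1 half-site and 3 GC boxes, and that of Hadhb held 4 GC boxes. Hadha and Hadhb start 273 bases apart on opposite strands, and their windows share 228 bases. Of the members, 27 matched the promoter table, with 29 windows. The half-site occurred in 4 of the 29 windows (13.8%, those of Acadm, Acadvl, Acot12 and Cpt1a) and in 16.3% of all promoters of the table. A direct repeat of half-sites spaced by 1 base, AGGTCANAGGTCA, the form that PPAR alpha binds with its partner RXR, occurred in 0 of the 29 windows and in 0.0396% of all promoters. A string this rare was unlikely to occur in 29 windows of any genes, so its absence tells nothing about the members. Inexact forms and other regions were not searched. The GC box occurred in 20 of 29 windows (69.0%) and in 35.7% of all promoters. The background was not limited to genes expressed in this tissue, and the overlapping windows of Hadha and Hadhb both count. Whether the share is particular to the members was not tested. A match is a string of letters and does not show that a factor binds.

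The peroxisomal genes overlapped between genotypes in 6 of 6 cases. Only 7.75% of all genes did not overlap, so this was not particular to them. Acaa1a, a peroxisomal thiolase of highest level in this group, lay at 232, 179.6 and 185 FPKM in the controls, against 225, 223 and 181 FPKM in the mutants. Its near copy Acaa1b ranged over 35.9 to 59.9 FPKM in the controls and over 32.8 to 54.5 FPKM in the mutants. Ehhadh, the bifunctional enzyme of straight-chain substrates and a classical PPAR alpha target, ranged over 66.2 to 102 FPKM in the controls and over 74.1 to 106 FPKM in the mutants. Hsd17b4, the bifunctional enzyme of branched and very long chains, lay at 134, 81.6 and 54.5 FPKM in the controls, against 95.5, 121 and 52.4 FPKM in the mutants, and is given in full for its spread, seen in the data. Its libraries numbered 3 were the lowest of each group and alike, and its log2 change was 0.01 ± 0.43 (SE). Crot, the octanoyltransferase that prepares shortened acyl chains for export, ranged over 71.5 to 84.6 FPKM in the controls and 65.8 to 75.3 FPKM in the mutants. Pex11a, a membrane protein of peroxisome division, ranged over 30.2 to 35.9 and 25.8 to 33.5 FPKM. Both had log2 changes of -0.17, with SE of 0.11 and 0.13.

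The acyl-CoA synthetase Acsl1, which activates long-chain fatty acids, lay at 27.8, 32.1 and 16.6 FPKM in the controls, against 36.5, 37.7 and 19.8 FPKM in the mutants. In each pair of same-numbered libraries the mutant lay higher, while the groups overlapped through both libraries numbered 3. The log2 change was 0.29 ± 0.34 (SE; 95% interval -0.53 to 1.10), and with the replicate block its SE was 0.09 and its interval 0.07 to 0.50 (limma adjusted p = 0.540). The thioesterases release free fatty acids from CoA. Acot1 in the cytosol ranged over 3.31 to 3.75 FPKM in the controls and over 3.25 to 4.95 FPKM in the mutants, while Acot2 in mitochondria ranged over 2.37 to 3.64 and 2.85 to 3.19 FPKM. Acot12, which hydrolyses acetyl-CoA, lay at 20.01, 9.01 and 5.14 FPKM in the controls, against 11.7, 15.2 and 3.78 FPKM in the mutants. It and the genes Pdk4, Angptl4 and Vnn1 are given in full for their spread, a choice made after their values were seen. Bdh1, which interconverts both main ketone bodies, lay at 68.0, 63.3 and 62.8 FPKM in the controls, against 66.4, 72.0 and 69.7 FPKM in the mutants, among the tightest of the 33.

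The genes that varied most between libraries were Pdk4, Acot12 and Angptl4, of which Pdk4 and Angptl4 are known to be induced by PPAR alpha and by fasting. The labels do not give the feeding state. Pdk4, the kinase that shuts down pyruvate oxidation, lay at 49.1, 31.9 and 9.17 FPKM in the controls, against 17.8, 33.7 and 7.64 FPKM in the mutants, a 6.43-fold range. Both libraries numbered 3 were low, and the spread within each genotype was wider than the difference between them. Angptl4, an inhibitor of lipoprotein lipase, lay at 24.8, 8.86 and 10.4 FPKM in the controls, against 5.58, 23.8 and 14.5 FPKM in the mutants, a 4.44-fold range with no common order of the libraries. Vnn1, a pantetheinase, lay at 8.89, 18.4 and 11.5 FPKM in the controls, against 6.77, 9.53 and 13.6 FPKM in the mutants. Ucp2, a carrier of the inner mitochondrial membrane, lay at 327, 259 and 220.1 FPKM in the controls, against 329, 389 and 239 FPKM in the mutants. With Acot12 (5.30-fold), 3 members had a highest library over 4 times the lowest, where 5.09% of all genes did, and 7 members exceeded 2 times, where 18.1% of all genes did. The median within-group SD on the log2 scale was 0.32 in the 12 genes taken as PPAR alpha targets, 0.15 in the other 21 members and 0.18 over all genes. Within the 12 it ran from 0.05 in Slc25a20 to 1.13 in Pdk4. The other 21 were not shown to be free of PPAR alpha targets, so these medians do not compare targets with non-targets.

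Part of this spread lay along the library number. In 14 of 33 members library 3 was the lowest of both groups, where this held for 15.2% of all genes, and in 3 members (Etfb, Hadha and Ppargc1a) it was the highest of both, where this held for 31.4%. The 14 were Acsl1, Acot12, Cpt2, Crat, Ucp2, Pdk4, Hadh, Acaa2, Acadl, Acadm, Ehhadh, Hsd17b4, Acaa1b and Ppara. The median deviation of the peroxisomal genes from the control mean was 0.22, 0.10 and -0.29 on the log2 scale in controls 1 to 3 and 0.17, 0.14 and -0.24 in mutants 1 to 3. For the mitochondrial genes it was 0.06, -0.05 and 0.01 in controls and 0.10, 0.19 and 0.05 in mutants, with mutant 3 again the lowest of its group. Library 3 was the lowest of both groups in 3 of 6 peroxisomal genes and in 6 of 16 mitochondrial ones, and whether these shares differ was not tested. Markers of other kinds moved with the number. The enterocyte markers were lowest in both libraries 3 for 9 of 13 genes, at a summed level of 24770, 22798 and 12564 FPKM in the controls and 22932, 29013 and 13728 FPKM in mutants. The exocrine pancreas markers were lowest there for 11 of 12 genes, at 20492, 18848 and 12675 FPKM in the controls and 12479, 8274 and 2899 FPKM in mutants. The 8 smooth muscle markers, led by Acta2 and Tagln, had their highest sums there, at 576, 497 and 986 FPKM in the controls and 541, 598 and 781 FPKM in mutants. The part of these markers in the values of the 33 genes was not tested.

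**Figure D3:**
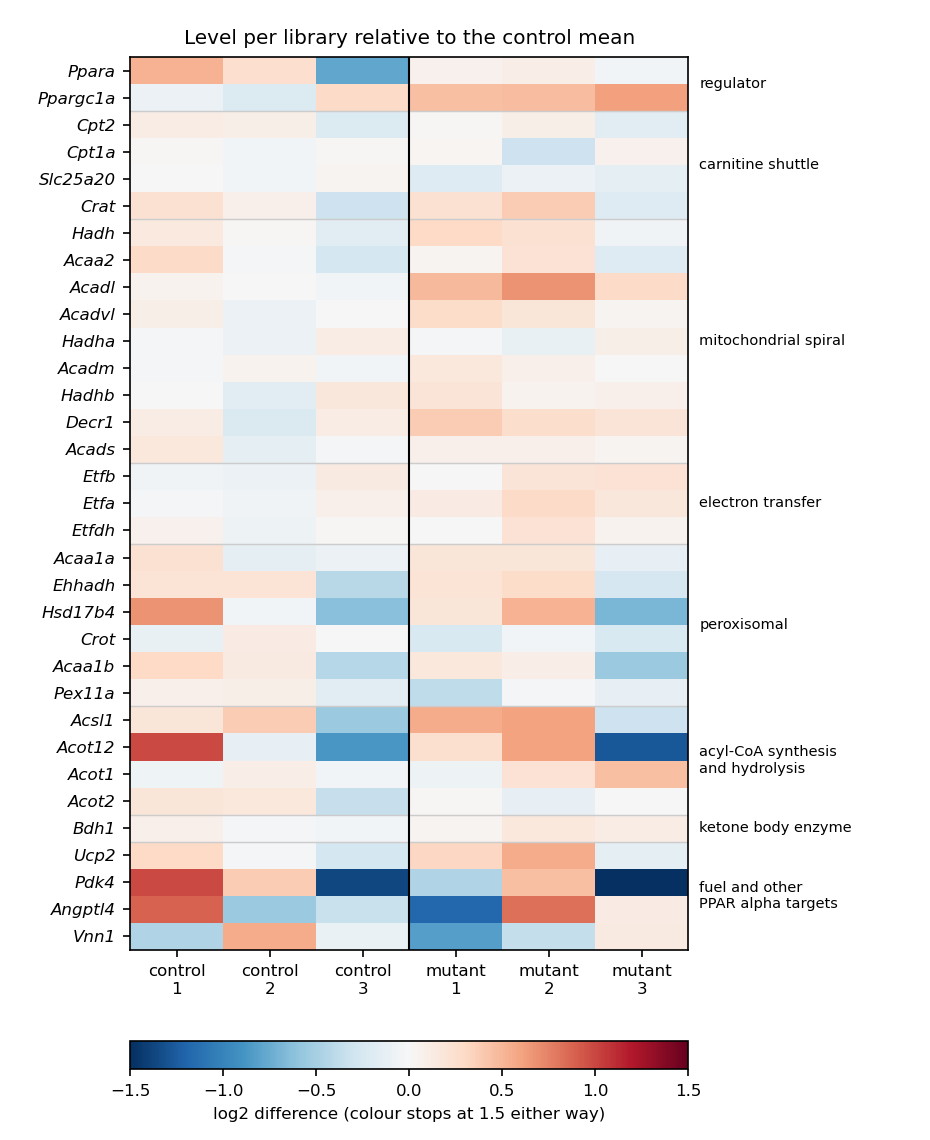
Log2 level of each gene in each library relative to the control mean, as colours that stop at 1.5 in either direction, ordered by role. Pdk4 and Acot12 are lowest in both libraries numbered 3 (Pdk4 at -1.37 in control 3 and -1.62 in mutant 3), and Acadl is above the control mean in all 3 mutants (0.49, 0.68 and 0.28).

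Of the other marker lists, those of leukocytes (led by Lyz2 and Csf1r) and adipocytes (led by Cidec and Fabp4) had summed levels that overlapped between groups, at 183 to 204 FPKM in the controls and 137 to 231 FPKM in mutants, and at 139 to 172 and 140.4 to 199.6 FPKM. The adipocyte-defining genes Adipoq, Plin1 and Lep were below the filter, as was the liver gene Alb. The liver markers that passed, led by Ttr and Apoa2, summed with the rest to 6.89 to 11.8 FPKM in the controls and 7.46 to 15.6 FPKM in mutants. Brunner gland and stomach markers, led by Tff2 and Muc6, summed to 2125 to 6848 FPKM in the controls and 106 to 3703 FPKM in mutants. Control 2 stood apart in this list. Gkn2, Gkn1 and Tff1 lay at 207, 111 and 136 FPKM there, and at no more than 1.28, 0.792 and 2.64 FPKM in any other library. The stomach genes Atp4a and Gif were low throughout and were not highest in control 2. The part of this difference in the results was not tested. Limma called 0 genes of any marker list at an adjusted p under 0.05, where it called 0.0221% of all genes. An unadjusted limma p under 0.05 was seen in 5 of 12 exocrine pancreas, 2 of 3 tested liver and 1 of 13 enterocyte markers. For all genes this share was 3.43%. With the replicate block the counts were 9, 2 and 2, and the share of all genes was 6.76%. All 12 pancreas markers had a negative change, with a median log2 change of -1.33.

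A wider list of 50 other genes of these pathways had 45 that passed the filter. Limma called 0 of them, where it called 0.0221% of all genes. Of the 45, 28 changes were positive and 17 negative, with a median of 0.06, and 6 did not overlap between groups, all 6 higher in the mutants, where 4.05% of all genes were. An unadjusted limma p under 0.05 was seen in 2 of the 45, where 3.43% of all genes passed. With the replicate block it was seen in 6, where 6.76% of all genes passed. The blocked fit called 0 of the 45 and 0.162% of all genes. Oxct1, which activates ketone bodies for use as fuel, lay at 98.2, 104 and 164 FPKM in the controls, against 173, 159.8 and 189.7 FPKM in the mutants. Control 3 lay above mutant 2, and the log2 change was 0.55 ± 0.20 (SE), with an unadjusted p under 0.05 and an adjusted limma p of 0.999. Acat1, the mitochondrial acetoacetyl-CoA thiolase that works on the same route, lay at 68.0, 58.0 and 62.1 FPKM in the controls, against 77.5, 78.2 and 69.2 FPKM in the mutants. Its groups did not overlap, by a small margin, and its log2 change was 0.26 ± 0.11 (SE), also with an unadjusted p under 0.05 and an adjusted limma p of 0.999.

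Both kinds of file deposited by the authors gave most members the same level. The ratio of the authors' mean count to the mean of reads rebuilt from the isoform coverage had a median of 1.01 over 12361 genes, but was 0.303 for Hadhb, 0.3498 for Acaa1b, 0.747 for Acot1, 0.785 for Acot2 and 0.860 for Acaa1a. These 5 genes and Acadm, whose ratio was 0.999, were the 6 members whose transcript had a copy elsewhere in the mm9 genome, at 90% identity or more over at least 30% of its length. For Hadhb these copies lay on chromosomes 2 and 15 (97.6% and 97.4% identity) at places without an annotated gene. Acaa1a and Acaa1b were 96.6% identical and Acot1 and Acot2 93.8%, so their levels are uncertain between the members of each pair. In the authors' deposited table, higher values in the mutants were listed for 24 members and lower ones for 9, and 28 of 33 had the same sign as in limma on FPKM.

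**Figure D4:**
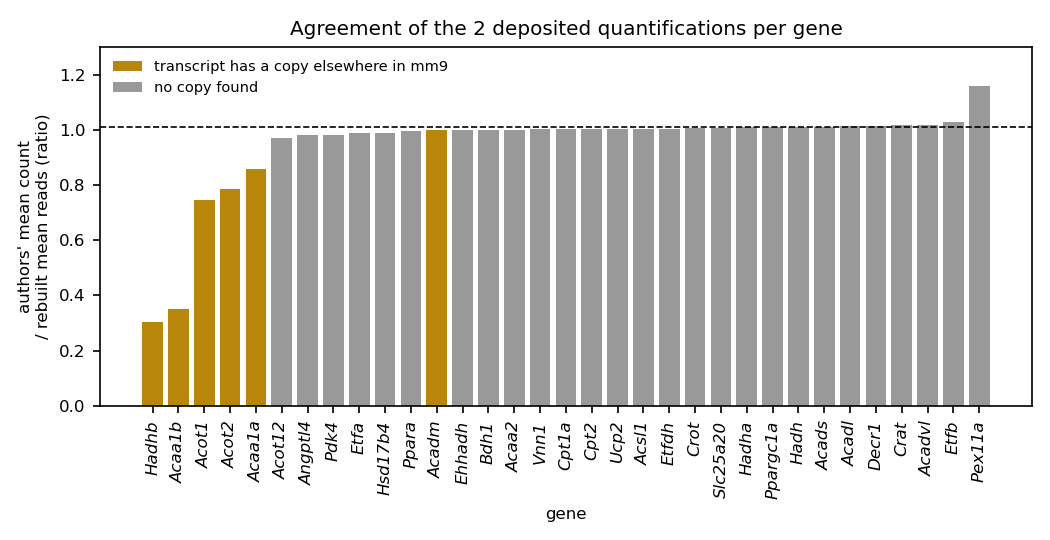
Ratio of the authors' mean count to the mean of rebuilt reads for each of the 33 genes, as bars from 0, coloured by whether the transcript has a copy elsewhere in mm9. Hadhb (0.303) and Acaa1b (0.3498) lie far below 1, and Pex11a is the highest at 1.16.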

How the data were processed

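RNA of whole duodenum was sequenced on a HiSeq2000 after TruSeq preparation, as the labels state. Per the submitters' processing notes, tools were TopHat, Cufflinks, DESeq and CASAVA 1.8.2 and the build mm9; options and strand are not given in the sources used here. The authors deposited FPKM per gene and per isoform and a coverage signal per isoform, per the file headers. They also deposited a comparison table with mean normalized counts as a signal, p-values, and the fold change as a ratio and as log2. Depth came from the constant ratio of coverage to FPKM. Reads were rebuilt as coverage times transcript length less 210 bases, divided by 101.5, both fitted. Of 17585 values up to 20 reads, 93.2% came within 0.1 of a whole number. Depth limits the precision of low genes, and rebuilt reads are not unique molecules.

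Samples were grouped by title. Genes and isoforms that reached an FPKM of 0.5 in 3 or more libraries entered the test as log2(FPKM + 0.5), which understates changes of low genes, with limma 3.58.1 (R 4.3.3, statmod 1.5.0, trend and robust prior). Tests were two-sided, p-values were adjusted after Benjamini and Hochberg over all genes or isoforms, and the threshold was 0.05. The pipeline was tested on simulated data. Copies were sought with minimap2 2.31-r1302. Python 3.11.15, pandas 2.3.3, numpy 2.4.6 and matplotlib 3.10.9 made summaries and plots. Rows sharing a gene name (712 of 23699) were kept apart; marker lists used the row of highest mean.

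The members and lists were chosen with earlier results of these data known. Full values are given for Cpt1a, Acadl, Ppara, Ppargc1a, members without overlap or with p under 0.05, the highest member of each role, up to 6 other pathway genes with p under 0.05, and, as names, the 2 highest of each marker list; further genes given in full were chosen after their values were seen. Some genes of the wider list are not reported here. Alternatives were pseudocounts of 0.1 and 1, no filter, a minimum of 1, quantile and upper quartile scaling, limma-voom on rebuilt reads, no transcripts under 200 bases, a replicate block and each library left out. Both groups carry the numbers 1 to 3, whose meaning the labels do not give. Deviations from the group means correlated at 0.26, 0.25 and 0.58 within same-numbered pairs, and the numbers were therefore taken as a possible pairing, although control 1 and mutant 2 correlated at 0.30. Standard errors, intervals and shares come from the fit without a block unless the block is named. Libraries numbered 3 set this pattern, and the match of 1 with 1 and 2 with 2 is not shown by it.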

Additional observations from a re-analysis of the deposited data

How the results depend on the processing

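Members called stayed at 0 in every alternative listed in the methods. The medians of all members, the mitochondrial genes, the peroxisomal genes and the PPAR alpha targets moved by less than the spread of replicates in each. Medians of the single roles were not followed across alternatives. Of 627 values of single members, 619 stayed on their side of the adjusted threshold and moved by no more than 1 within-group SD of the gene, a wide tolerance for variable genes, and 16 members changed sign in at least 1 alternative. Log2 changes ranged from -1.22 to 0.00 in Pdk4, from -0.58 to 0.42 in Acot12 and from -0.30 to 0.35 in Hsd17b4. Limma called 3 genes over the whole table, 1 without the filter, 1 with upper quartile scaling, 0 without transcripts under 200 bases, 0 with limma-voom on rebuilt reads, and 0 to 63 when 1 library was left out. The median of the PPAR alpha targets lay between -0.12 and 0.06 and that of the peroxisomal genes between -0.21 and 0.16 across alternatives. The cause of these shifts was not tested.

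In a fit with a replicate block, 22 genes were called (0.162% of those tested) and 0 members, at adjusted p of 0.206 for Acadl and 0.305 for Ppargc1a, and the block changed no adjusted call on the members. At an unadjusted p under 0.05 it gave 4 members in place of 2. Other settings were chosen after seeing the data. Without both libraries numbered 3, 186 genes (1.4% of those tested) and 1 member, Acadl (0.56, adjusted p = 0.0419), were called by limma. With the block and without numbers 1, limma called 288 genes (2.17% of those tested) and 1 member, Angptl4 (0.91, adjusted p = 0.000221). Without numbers 2 the blocked fit called 0 genes. Without numbers 3 it called 599 genes (4.51%) and 3 members, Acadl (0.56, limma adjusted p = 0.00208), Ppargc1a (0.60, 0.0200) and Vnn1 (-0.64, 0.00883). The blocked fits without a number rest on 2 pairs with 1 residual degree of freedom per gene.

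With 3 libraries a group, changes under about the half-width of each unblocked interval could not be told from 0, and the widest intervals were those of Pdk4 (-2.67 to 1.60), Acot12 (-1.88 to 1.59) and Angptl4 (-1.69 to 1.54), so no statement on their change can be made.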
